A study of Homo sapiens with 8 samples.

Results

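Expression of IL7R and of the genes through which it signals was examined in TIB153 and CUTLL1 (CUTTL1 by its label), 2 human lines of T-cell acute lymphoblastic leukaemia, or T-ALL. The 10 genes were chosen by name, with earlier results of these data known. They cover the receptor (IL7R), its kinases (JAK1, JAK3), its transcription factors (STAT5A, STAT5B) and genes that STAT5 induces (CISH, SOCS1, SOCS2, SOCS3, PIM1). All 10 were found among the 57189 genes counted, and all 10 passed the filter on low counts, which left 13280 genes. There were 4 groups, none transfected and each maintained in RPMI with serum: CUTLL1 with PKF118-310, CUTLL1 control, TIB153 with PKF118-310 and TIB153 control. PKF118-310 is a small molecule that keeps β-catenin from binding TCF transcription factors, and it was given at 1 µM for 24 h. Controls received placebo. Poly(A) RNA was sequenced as 1 library per group in 2 lanes, and the lanes were summed, so n = 1 library per group and values within a line carry no replicate error.

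Interleukin-7 binds a receptor made of the IL7R chain and the common γ chain, which IL2RG encodes. JAK1 sits on the IL7R chain and JAK3 on the γ chain, and together they phosphorylate STAT5A and STAT5B, which enter the nucleus and switch on genes for survival and growth. CISH and the SOCS proteins are among the genes switched on, and they damp the receptor and its kinases in a negative feedback loop. In developing T cells this pathway keeps early thymocytes alive, and activating lesions in IL7R, JAK1, JAK3 and STAT5B recur in T-ALL.

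Library totals ran from 7609427 to 8140391 counts. CPM is the count scaled to a common library size. The 1-sided 95% upper limit for a count of 0, about 3 counts, stood at 0.369 to 0.394 CPM before composition was evened out. Levels below are CPM scaled by TMM, the factor used for that. Intervals are exact 95% Poisson intervals for a level and exact 95% binomial intervals for a ratio. For a difference between the ratios of the lines, the 95% interval is a normal approximation from the counts. All of these intervals cover counting error only. The T lineage label was checked against 10 markers: CD3D, CD3E, CD3G and LCK had at least 746 counts in every library, and the 10 together summed to 1992 CPM in treated CUTLL1 and 2592 CPM in control CUTLL1, against 2565 CPM in treated and 2576 CPM in control TIB153. The lowest of the 10 were CD2 in CUTLL1 (33 counts in treated and 104 in control) and PTCRA in TIB153 (41 in treated and 29 in control). Of the B lineage markers, MS4A1 was at 0 in all 4 libraries and PAX5 and CD79B had at most 3 counts. CD79A was well detected, at 13.6 CPM in treated and 10.8 CPM in control CUTLL1 and at 104 CPM in treated and 79.0 CPM in control TIB153. The 5 myeloid markers summed to between 0.357 and 0.674 CPM, with CSF1R at 0 throughout.

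The letters upstream of the members were read from RefSeq promoter windows (GRCh38.p14, 250 bases before to 50 after a start site), which were on hand for 9 of the 10 genes, SOCS2 being the exception. Of the 14 member windows, the window of CISH was the only one that held TTCNNNGAA, the palindrome STAT dimers bind, and it held the match 4 times. By comparison 7.66% of all 35116 windows held the match at least once and 0.0199% held it 4 times or more. CISH is shown for this reason, in 2 stretches on the minus strand of chromosome 3, with the matches in capitals. The stretch farther from the start site was kept to 30 bases since it overlaps an exon of MAPKAPK3, a gene on the other strand.
CISH, chr3:50611986-50612015: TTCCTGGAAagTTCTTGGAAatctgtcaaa
CISH, chr3:50611832-50611907: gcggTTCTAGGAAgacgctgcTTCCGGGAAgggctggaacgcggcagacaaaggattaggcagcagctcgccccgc

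The letters CTTTGA, the core bound by TCF and LEF factors, were searched on both strands because PKF118-310 acts on the β-catenin/TCF complex. They occurred in 1 window each of CISH, JAK1 and STAT5A, and 12.9% of all windows held them. The STAT5A match is shown because STAT5A had the lowest adjusted p of the members. It lies on the plus strand of chromosome 17, 38 bases before the last of 3 annotated start sites, in a window that GENCODE exons cover upstream of that site, so the match is exonic. Capitals mark it.
STAT5A, chr17:42288448-42288477: caggcagctgacCTTTGAggaggaaatcgc
The window of IL7R, the member that differed most between the control lines, held neither motif, nor TGGGAA, the core bound by the NOTCH effector CSL, nor the FOXO letters GTAAACA. The CSL letters were found in 24% of all windows and the FOXO letters in 3.42%. The IL7R stretch below lies 203 to 43 bases before the RefSeq start, on the plus strand of chromosome 5. It falls inside the gene as GENCODE draws it, where it is intronic.
IL7R, chr5:35856688-35856848: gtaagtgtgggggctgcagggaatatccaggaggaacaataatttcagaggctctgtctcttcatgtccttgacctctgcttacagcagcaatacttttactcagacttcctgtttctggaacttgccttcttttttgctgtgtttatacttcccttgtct
A match is a description of letters in a short window, and binding was not measured here.

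IL7R, on chromosome 5 (35852695 to 35879603, plus strand, hg38), was 3.34-fold lower in treated than in control CUTLL1. Its count was 450 in treated CUTLL1, against 1388 in control CUTLL1, and 65 in treated TIB153, against 74 in control TIB153. Levels were therefore 56.1 CPM (51.0 to 61.5) in treated CUTLL1 and 187 CPM (178 to 197) in control CUTLL1, and 7.74 CPM (5.97 to 9.86) in treated TIB153 and 9.61 CPM (7.55 to 12.1) in control TIB153. The order ran from control CUTLL1 through treated CUTLL1 to both TIB153 libraries, whose intervals overlap. The log2 ratio of PKF118-310 over control was −1.74 (−1.90 to −1.59) in CUTLL1 and −0.31 (−0.82 to 0.19) in TIB153. The CUTLL1 ratio lay 1.43 below the TIB153 ratio on the log2 scale (counting interval of the difference −1.93 to −0.92), a difference that cannot be tested with 1 library per group. A loss of IL7R-expressing cells and less IL7R RNA per cell cannot be told apart in these bulk libraries. All 10 T lineage markers were also below control in CUTLL1 beyond counting error, beside 23.9% of all genes with an interval below no change, and CD2 had a log2 ratio of −1.76. The summed level of the markers is given above, and the part of this in the IL7R value was not tested.

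**Figure D1:**
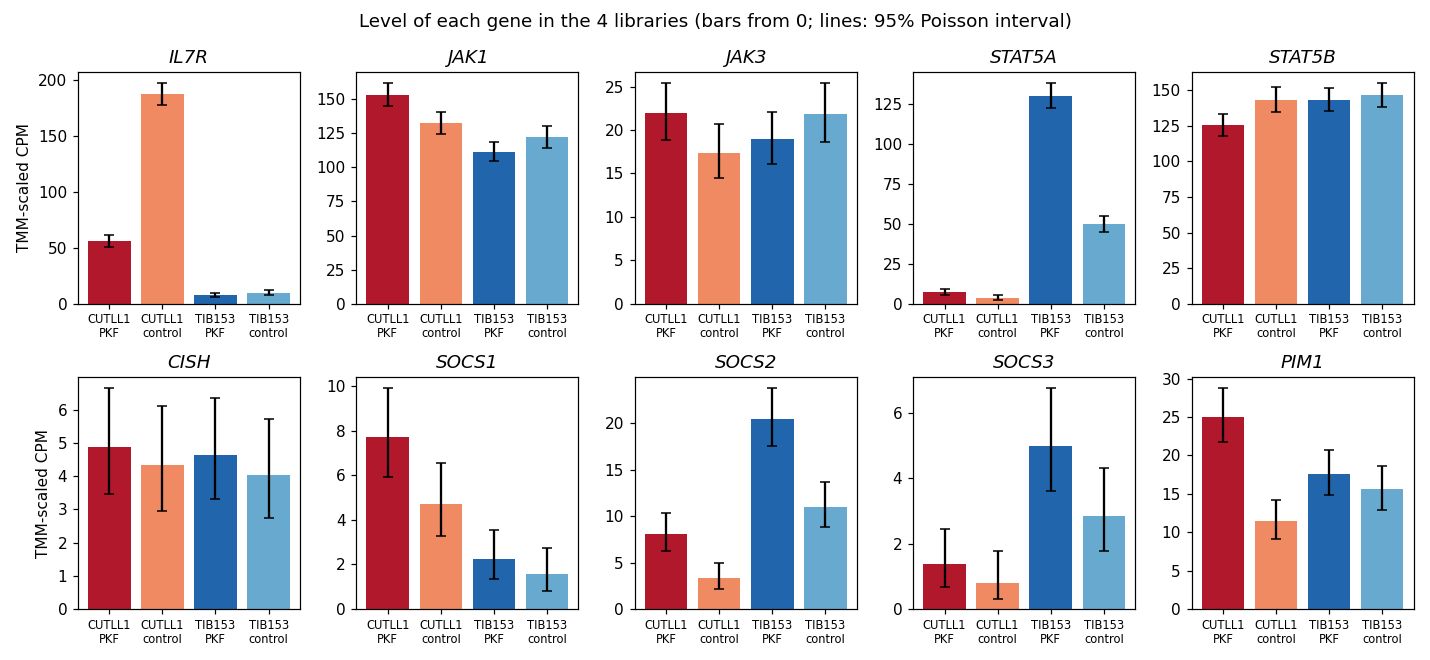
Each panel gives the TMM-scaled CPM of 1 gene (y axis, from 0) in the 4 libraries (x axis), with PKF118-310 left of control for each line; bars are single libraries and lines are 95% Poisson intervals. IL7R stands at 187 CPM in control CUTLL1 and under 10 CPM in both TIB153 libraries, while STAT5A is highest in treated TIB153.

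The response common to both lines was then tested by edgeR's quasi-likelihood method with cell line as a block, over all 13280 genes. The standard error (SE), given after ±, was computed from the edgeR test statistic. It rests mostly on spread borrowed from other genes and is not the spread between the 2 lines. IL7R had a log2 change of −1.26 ± 0.35 (edgeR SE, n = 2 lines) and did not pass (edgeR adjusted p = 0.0952). The ratio was below 0 in both lines, but the TIB153 interval includes no change. Without the filter on low counts IL7R passed (edgeR adjusted p = 6.79e-10), as it did in lane 1 alone (0.000106). Such a drop was not particular to IL7R. Without the filter the edgeR adjusted p of STAT5A went from 0.00148 to 3.06e-08, while that of JAK1 went from 0.863 to 0.983. By the DESeq2 Wald test IL7R did not pass (adjusted p = 0.447).

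The γ chain gene IL2RG, which JAK3 needs at the receptor, was named whatever its values. It had 300 counts in treated and 395 in control CUTLL1, and 348 in treated and 395 in control TIB153. Its log2 ratio was −0.51 (−0.73 to −0.29) in CUTLL1 and −0.31 (−0.52 to −0.10) in TIB153, and the change across lines did not pass (edgeR adjusted p = 0.108). Of the exonic bases of IL2RG, 50.8% lie in exons of AL590764.2 on the same strand, so reads there could not be given to 1 gene and its counts are uncertain to that extent. Its level was therefore not set against that of IL7R.

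The 2 kinases differed little. JAK1 (chromosome 1, 64833229 to 64966504, minus strand) had 1229 counts in treated and 981 in control CUTLL1, and 937 in treated and 939 in control TIB153. Its log2 ratio was 0.21 (0.09 to 0.33) in CUTLL1 and −0.13 (−0.26 to 0.0037) in TIB153. JAK3 (chromosome 19, 17824780 to 17848071, minus strand) had 176 and 129 counts in treated and control CUTLL1, and 159 and 168 in treated and control TIB153, with log2 ratios of 0.33 (−0.0025 to 0.67) in CUTLL1 and −0.20 (−0.53 to 0.12) in TIB153. Neither passed across lines (edgeR adjusted p = 0.863 for JAK1 and 0.885 for JAK3). Per exonic length JAK1 exceeded JAK3 in every library, by 7.53 and 8.20 times in treated and control CUTLL1 and by 6.36 and 6.03 times in treated and control TIB153.

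STAT5A was higher with PKF118-310 in both lines, from very different starting levels. The gene lies on chromosome 17 (42287547 to 42311943, plus strand) beside its paralog STAT5B. It had 59 counts in treated and 27 in control CUTLL1, and 1094 in treated and 384 in control TIB153. Levels were 7.35 CPM (5.60 to 9.48) in treated CUTLL1 and 3.64 CPM (2.40 to 5.30) in control CUTLL1, and 130.3 CPM (123 to 138) in treated TIB153 and 49.9 CPM (45.0 to 55.1) in control TIB153. The intervals of treated and control overlap in neither line. The log2 ratio was 1.38 (1.22 to 1.56) in TIB153, a 2.61-fold difference, and 0.999 (0.33 to 1.73) in CUTLL1, just under the 2-fold limit used for calls. With library totals as the scale, or in lane 2 alone, the CUTLL1 ratio passed that limit. STAT5A rose across lines by 1.28 ± 0.19 on the log2 scale (edgeR SE, n = 2 lines, edgeR adjusted p = 0.00148). The DESeq2 Wald test gave an adjusted p of 0.00226. The adjusted p stayed under 0.05 in 7 of the 8 settings tried, the exception being the fit without the cell line block (0.906).

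STAT5B (chromosome 17, 42199168 to 42276707, minus strand) was nearly level across the 4 libraries, at 125 CPM in treated and 143 CPM in control CUTLL1 and at 143 CPM in treated and 146 CPM in control TIB153. Its log2 ratios were −0.19 (−0.31 to −0.06) in CUTLL1 and −0.03 (−0.15 to 0.09) in TIB153, and it did not pass across lines (edgeR adjusted p = 0.596). The balance of the pair therefore differed between libraries. Per exonic length STAT5A made up 6.16% of the pair in treated CUTLL1, against 2.77% in control CUTLL1, and 50.5% in treated TIB153, against 27.6% in control TIB153. The summed level of the pair was 20.7 CPM per kb in treated and 22.8 CPM per kb in control CUTLL1, and 44.9 CPM per kb in treated and 31.4 CPM per kb in control TIB153. The paralogs are alike in sequence: 10.3% of the 50-base words in STAT5A coding transcripts occur in STAT5B, and 9.88% of those in STAT5B occur in STAT5A, so reads from those words could not be placed by sequence alone and both values are uncertain to that extent.

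**Figure D2:**
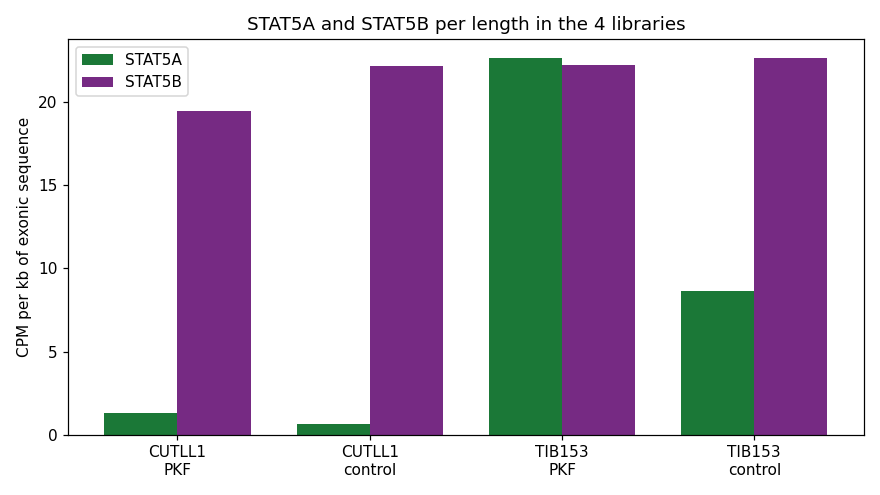
Bars give STAT5A (green) and STAT5B (purple) in CPM per kb of exonic sequence (y axis, from 0) in each of the 4 libraries (x axis), 1 library per bar. STAT5B stays between 19.5 and 22.7 CPM per kb while STAT5A goes from 0.633 CPM per kb in control CUTLL1 to 22.6 CPM per kb in treated TIB153.

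Among the feedback genes, SOCS2 rose and CISH differed little. SOCS2 (chromosome 12, 93569814 to 93583487, plus strand), which damps cytokine and growth hormone receptors, had 65 counts in treated and 25 in control CUTLL1, and 172 in treated and 85 in control TIB153. Treated and control intervals overlap in neither line. Its log2 ratio was 1.25 (0.58 to 1.99) in CUTLL1 and 0.89 (0.51 to 1.28) in TIB153, where lane 1 alone gave 1.08 and so passed 2-fold. SOCS2 rose 2.06-fold across lines (1.04 ± 0.28 on the log2 scale, edgeR SE, n = 2 lines, edgeR adjusted p = 0.0283). The DESeq2 Wald test did not call it (adjusted p = 0.223), nor did edgeR in lane 2 alone (0.108), and 4.09% of its exonic bases lie opposite exons of the antisense gene SOCS2-AS1, which matters if strand was ignored in counting.

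CISH, the member with 4 STAT motif matches upstream (chromosome 3, 50606490 to 50611831, minus strand), encodes an inhibitor that binds activated receptors and is widely used as a readout of STAT5 activity. It had 39 counts in treated and 32 in control CUTLL1, and 39 in treated and 31 in control TIB153. The 4 levels lay between 4.03 and 4.86 CPM with overlapping intervals. The log2 ratios of 0.17 (−0.54 to 0.89) for CUTLL1 and 0.20 (−0.51 to 0.93) for TIB153 leave room for a change of up to about 1 log2 unit at this depth, and the test across lines did not pass (edgeR adjusted p = 0.772). Of the exonic bases of CISH, 4.26% lie opposite exons of MAPKAPK3.

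SOCS1 and SOCS3 had at most 62 counts in any library. Per exonic length, however, SOCS1 stood above JAK3 in CUTLL1 (4.30 against 3.22 CPM per kb in treated and 2.63 against 2.55 in control). In TIB153 it stood below JAK3 (1.26 against 2.78 CPM per kb in treated and 0.868 against 3.20 in control). SOCS1 (chromosome 16, 11254405 to 11256200, minus strand), which inhibits JAK kinases directly, had 62 counts in treated and 35 in control CUTLL1, and 19 in treated and 12 in control TIB153. Its log2 ratio was 0.70 (0.09 to 1.35) in CUTLL1 and 0.52 (−0.58 to 1.71) in TIB153. SOCS3 (chromosome 17, 78356778 to 78360077, minus strand), best known for damping gp130 cytokine receptors, had 11 counts in treated and 6 in control CUTLL1, and 42 in treated and 22 in control TIB153, with log2 ratios of 0.71 (−0.80 to 2.48) for CUTLL1 and 0.79 (0.03 to 1.62) for TIB153. Both ratios of both genes were above 0, but neither gene passed across lines (edgeR adjusted p = 0.294 for SOCS1 and 0.283 for SOCS3). Summed over CISH, SOCS1, SOCS2 and SOCS3, the libraries held 177 counts (22.1 CPM) in treated and 98 (13.2 CPM) in control CUTLL1. In TIB153 the sum was 272 (32.4 CPM) in treated and 150 (19.5 CPM) in control. SOCS2 alone gave 65 and 25 of these counts in treated and control CUTLL1, and 172 and 85 in treated and control TIB153.

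PIM1, a serine/threonine kinase gene that STAT5 induces and that promotes survival (chromosome 6, 37170203 to 37175426, plus strand), was higher in treated CUTLL1. It had 201 counts in treated and 85 in control CUTLL1, and 148 in treated and 120 in control TIB153. The log2 ratio was 1.12 (0.75 to 1.51) in CUTLL1, where the levels of 25.0 and 11.5 CPM in treated and control cells had separate intervals, and 0.18 (−0.18 to 0.54) in TIB153, where the intervals overlap. The CUTLL1 ratio exceeded the TIB153 ratio by 0.95 (counting interval 0.44 to 1.45), which was not tested against replicates. Across lines PIM1 did not pass (edgeR adjusted p = 0.126), and in lane 1 alone its CUTLL1 log2 ratio of 0.98 fell short of 2-fold.

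**Figure D3:**
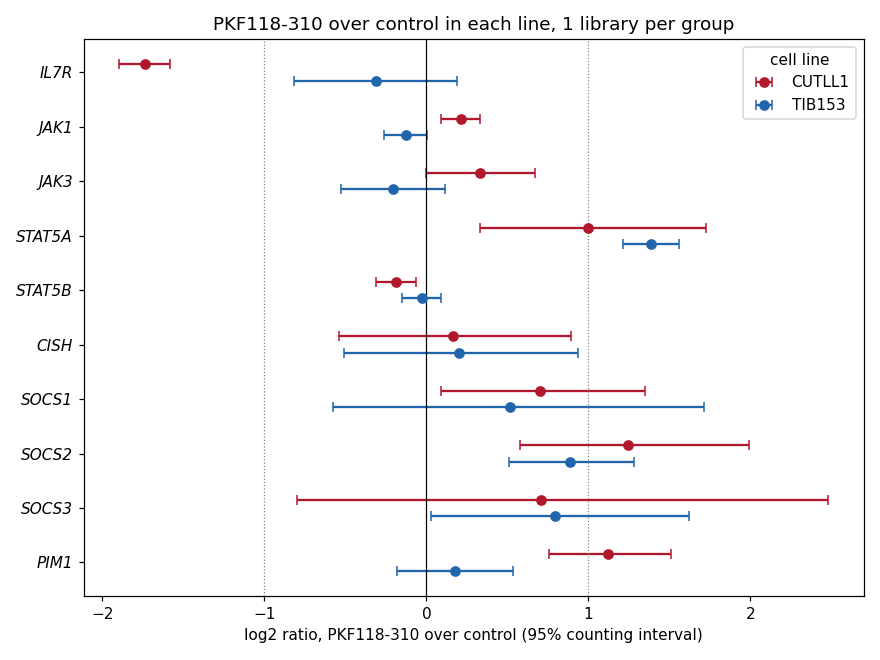
Points give the log2 ratio of PKF118-310 over control (x axis) for each gene (y axis) in CUTLL1 (red) and TIB153 (blue), 1 library per group; lines are 95% counting intervals and dotted lines mark 2-fold. IL7R lies at −1.74 in CUTLL1 and −0.31 in TIB153, and STAT5A and SOCS2 lie above 0 in both lines with intervals that exclude no change.

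The members and lists were chosen with earlier results of these data known, so counts set against all genes describe them and test nothing. Counted over the members, 2 of 10 (SOCS2, PIM1) were at least 2-fold higher in treated CUTLL1 with an interval excluding no change, against 4.8% of all genes tested. By the same rule 1 of 10 (IL7R) was at least 2-fold lower, against 2.21%. By the interval alone 5 were above no change in CUTLL1, against 23.3% of genes, and 2 below it (IL7R and STAT5B), against 23.9%. In TIB153 1 of 10 (STAT5A) was at least 2-fold higher, against 5.47% of genes, and 0 of 10 were lower, against 2.12%. By the interval alone 3 were above no change in TIB153 (STAT5A, SOCS2 and SOCS3), against 25.2%, and 0 below it, against 28.7%. The median log2 ratio of the members was 0.52 in CUTLL1 and 0.19 in TIB153, beside 0.0027 and −0.0092 over all genes. Across lines 2 of 10 rose (STAT5A and SOCS2), against 6.11% of genes, and 0 of 10 fell, against 6.78%. The DESeq2 Wald test gave no adjusted p for SOCS1, SOCS3 and CISH. Of the other members 1 rose by it (STAT5A), against 2.07% of the 9675 genes with an adjusted p, and 0 fell, against 2.67%. At an edgeR p under 0.05 before adjustment, 3 of 10 would count as rising (STAT5A, SOCS2 and PIM1), against 13.9% of genes, and 1 of 10 as falling (IL7R), against 14.8%. The fit left 1 residual degree of freedom, and most of the spread behind its p-values was borrowed from other genes (a median of 13 prior degrees of freedom). The p-values thus rest mostly on this borrowed spread, and beyond it only on how the treatment difference varied between the lines in these libraries.

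The control libraries were then set side by side to show how the pathway differed between the untreated lines. IL7R was 19.4-fold higher in control CUTLL1 than in control TIB153, a log2 ratio of 4.27 (3.95 to 4.64), and SOCS1 was 2.95-fold higher, with 1.56 (0.62 to 2.68). STAT5A went the other way and was 13.5-fold lower in control CUTLL1 (−3.75, interval −4.40 to −3.21). SOCS2 and SOCS3 were also lower there, with log2 ratios of −1.69 (−2.42 to −1.05) and −1.74 (−3.41 to −0.47). The SOCS3 value rests on 6 counts in control CUTLL1 against 22 in control TIB153, and in lane 2 alone SOCS3 was not called. Thus 2 of 10 members were at least 2-fold higher in CUTLL1, against 6.12% of all genes, and 3 of 10 at least 2-fold lower, against 9.45%. JAK1 (0.12), STAT5B (−0.03) and CISH (0.10) had intervals that include no change, as did JAK3 (−0.33, interval −0.67 to 0.01), and PIM1 had −0.44 (−0.86 to −0.03). By the interval alone 2 members were above no change, against 27.6% of genes, and 4 below it, against 27.8%. Each line gave 1 control library, so library and line cannot be told apart.

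**Figure D4:**
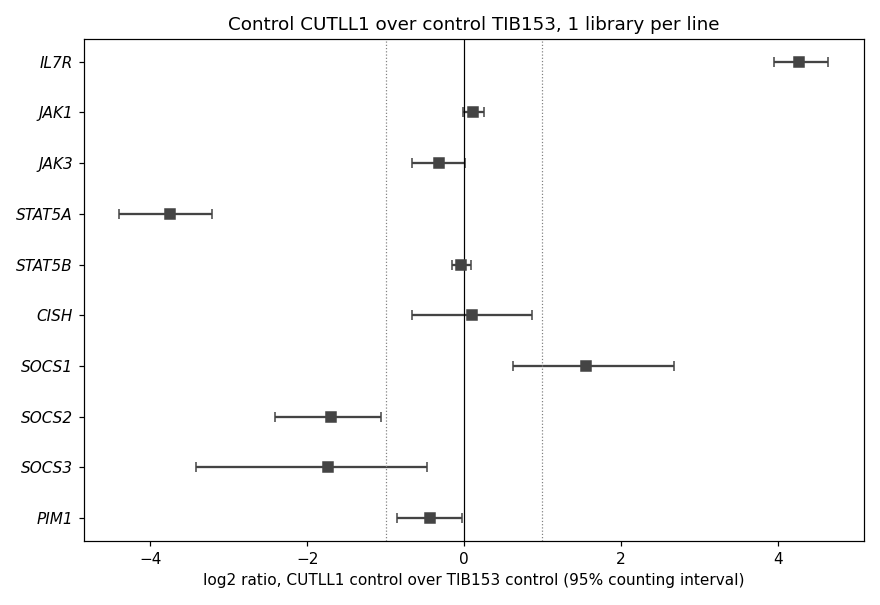
Squares give the log2 ratio of control CUTLL1 over control TIB153 (x axis) for each gene (y axis), 1 library per line; lines are 95% counting intervals and dotted lines mark 2-fold. IL7R lies at 4.27 and STAT5A at −3.75, while JAK1, STAT5B and CISH lie near 0.

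Per exonic length, the order of the members also differed. In control CUTLL1 IL7R stood first at 30.9 CPM per kb, followed by STAT5B (22.2) and JAK1 (20.9), and STAT5A stood eighth at 0.633 CPM per kb. In treated CUTLL1 JAK1 led at 24.2 CPM per kb and IL7R followed STAT5B (19.5) at 9.25 CPM per kb. In treated TIB153 STAT5A (22.6) and STAT5B (22.2) led, whereas in control TIB153 STAT5B (22.7) and JAK1 (19.3) stood ahead of STAT5A (8.67). IL7R had only 1.28 CPM per kb in treated and 1.59 CPM per kb in control TIB153.

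Genes nearest to a member were sought by Euclidean distance between log2 CPM centred over the 4 libraries, among 10676 genes of mean 5 CPM or more, which describes these libraries and nothing about control or function. Nearest to IL7R was the sphingomyelinase gene SMPD3 (distance 0.531 log2 units), with 186 counts in treated and 824 in control CUTLL1 and 33 in treated and 27 in control TIB153. SERPINB2 (0.694), FRMD4B (0.762), the T cell receptor β constant gene TRBC1 (0.773) and the mitochondrial pseudogene MTCO1P12 (0.831) followed. Nearest to SOCS2 was CD84, a receptor of the SLAM family, at 0.0613, with 315 counts in treated and 116 in control CUTLL1 and 829 in treated and 404 in control TIB153. SOX11, SHANK3, PCSK4 and ZNF345 lay at 0.151 to 0.175. The genes nearest to CISH (EMC8, GATC, CEPT1, MSANTD2 and PRPF6, at 0.0340 to 0.0436) were, like it, nearly level. The counting intervals of the CISH and SOCS2 ratios are far wider than these distances, so which genes lay nearest to them is uncertain.

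Other genes of the pathway were taken from 5 lists. Beside the counts for each list, 6.11% of all genes tested rose across lines by edgeR and 6.78% fell. Of 10 IL7R partners and sister receptors, 6 were tested. The ligand gene IL7 had a single count, in treated TIB153. It had 0 in the other libraries, where the 1-sided 95% limit is about 3 counts each. TSLP, a cytokine that also signals through IL7R, was the only one of the 6 that rose and none fell. It had 38 counts in treated and 19 in control CUTLL1, and 104 in treated and 32 in control TIB153 (1.28 ± 0.35 on the log2 scale; edgeR adjusted p = 0.0309, but 0.116 in lane 2 alone). Of 7 other JAK and STAT genes 1 fell and none rose: STAT6, which serves the interleukin-4 receptor, had log2 ratios of −0.46 (−0.62 to −0.31) in CUTLL1 and −0.77 (−0.90 to −0.64) in TIB153 (edgeR adjusted p = 0.0106, DESeq2 0.0593). JAK2, named whatever its values, had log2 ratios of 0.32 (−0.13 to 0.77) for CUTLL1 and 0.72 (0.36 to 1.10) for TIB153 and did not pass (edgeR adjusted p = 0.179).

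Of 16 further genes listed as negative regulators 1 rose, against 6.11% of all genes, and 1 fell, against 6.78%. SOCS7 rose by 0.66 ± 0.12 (edgeR adjusted p = 0.00567), with 2131 counts in treated and 1152 in control CUTLL1 and 1695 in treated and 1058 in control TIB153. PTPN11, which encodes the phosphatase SHP2, fell, with a log2 change of −0.50 ± 0.13 (edgeR adjusted p = 0.0254, DESeq2 0.0668). PTPN6, which encodes the related phosphatase SHP1, a brake on cytokine receptors and JAK kinases, had 391 counts in treated and 2772 in control CUTLL1, and 441 in treated and 483 in control TIB153, with log2 ratios of −2.94 (−3.10 to −2.79) for CUTLL1 and −0.26 (−0.45 to −0.07) for TIB153, and it did not pass across lines (edgeR adjusted p = 0.594).

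Of 11 genes known as STAT5 targets 10 were tested. By edgeR 0 rose across lines, against 6.11% of all genes, and 0 fell, against 6.78%. The DESeq2 Wald test, which gave OSM no adjusted p, also called 0 in each direction, against 2.07% and 2.67%. At an unadjusted edgeR p under 0.05, 2 would count as rising, against 13.9% of genes, and 1 as falling, against 14.8%. Without the filter on low counts PIM2 passed as a rise (edgeR adjusted p = 0.00266), as it did in lane 1 alone (0.0111), and the cyclin gene CCND3 passed as a fall (log2 change −0.38, edgeR adjusted p = 0.0401). BCL2, the survival gene through which interleukin-7 protects T cells, had 657 counts in treated and 553 in control CUTLL1, and 426 in treated and 333 in control TIB153. Its log2 ratio was 0.13 (−0.03 to 0.30) in CUTLL1 and 0.23 (0.02 to 0.44) in TIB153, and it did not pass (edgeR adjusted p = 0.443). PIM2, a kinase related to PIM1, had 373 counts in treated and 128 in control CUTLL1 (log2 ratio 1.42, interval 1.13 to 1.73) and 182 in treated and 143 in control TIB153 (log2 ratio 0.22, −0.10 to 0.55), and did not pass across lines (edgeR adjusted p = 0.0798). The median log2 ratio of the list was −0.04 in CUTLL1 and 0.14 in TIB153.

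Of 9 transcription factors known to act on IL7R 2 fell, against 6.78% of all genes, and 1 rose, against 6.11%. NOTCH1, the receptor known to activate IL7R transcription in T-ALL, had 2739 counts in treated and 6077 in control CUTLL1, and 1498 in treated and 1881 in control TIB153, with log2 ratios of −1.26 (−1.33 to −1.20) for CUTLL1 and −0.45 (−0.55 to −0.36) for TIB153 (edgeR adjusted p = 0.0185). TCF7, a partner of β-catenin, had log2 ratios of −1.36 (−1.43 to −1.29) for CUTLL1 and −0.58 (−0.65 to −0.51) for TIB153 (edgeR adjusted p = 0.0109). Both were lower in both lines, with the lower ratio in CUTLL1, where IL7R was also lower. Of the 9 factors, 3 had a CUTLL1 interval below no change, NOTCH1 and TCF7 among them, against 23.9% of genes. Another 3 had a CUTLL1 interval above no change, against 23.3%. MYB, a factor of early haematopoietic cells, rose (edgeR adjusted p = 0.0221). Its log2 ratio was 0.43 (0.36 to 0.49) for CUTLL1 and 1.26 (1.21 to 1.31) for TIB153. FOXO1, an activator of IL7R in T cells, had 33 counts in treated and 24 in control CUTLL1, and 57 in treated and 110 in control TIB153. In CUTLL1 the log2 ratio of FOXO1 was 0.34 (−0.46 to 1.17), while in TIB153 it was at least 2-fold lower, at −1.07 (−1.56 to −0.60), and it did not pass across lines (edgeR adjusted p = 0.420). Whether any of these genes bears on the IL7R value was not tested.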

How the data were processed

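The authors deposited 1 table per lane (8 lane files) with raw read counts for each gene. The tools named in the submitters' processing notes are HTSeq, HISAT2 and DESeq2, with build hg38, and the counting's strand setting is not given in those sources. Per the labels, poly(A) RNA went into a stranded library. The authors' own comparison tables (fold changes and p-values) were not used. The 2 lanes of a library agreed within sampling noise (chi-square per degree of freedom 0.990 to 1.02) and were summed. R 4.3.3 with edgeR 4.0.16 and DESeq2 1.42.0 was used. Genes were filtered with filterByExpr (treatment as group) and scaled by TMM. Ratios within a line used a pseudocount of 0.5 counts and exact binomial intervals at 95%; a call needed a 2-fold ratio and an interval excluding no change. Across lines, edgeR's quasi-likelihood test (robust, cell line as block) was fitted over all genes with Benjamini-Hochberg adjustment at 0.05. Alternatives were other scalings, a pseudocount of 2, no filter, no block, the DESeq2 Wald test and each lane alone. The fitting script was tested on simulated data. Coordinates and exonic lengths are from GENCODE v29 (hg38), and sharing between genes was counted over its transcripts. Its gene starts and ends matched those of the files for every listed gene, the files counting starts from 0. The members and lists were chosen with earlier results of these data known. Named from each list were up to 4 genes, those with the largest mean absolute log2 ratio among genes at 5 CPM or more that passed the test or the call, plus IL2RG, JAK2, PTPN6 and BCL2; CCND3, the lineage markers and genes at 0 were named after their values were seen.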

Additional observations from a re-analysis of the deposited data

How the results depend on the processing

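No replicate could be left out within a line, since each group held 1 library, and leaving out a line gives the other line's ratio. With lane 1 only, 1 member was called higher in CUTLL1 in place of 2, and 2 in TIB153 in place of 1. With library totals only, and in lane 2 only, 3 were higher in CUTLL1, STAT5A being the one added, and in lane 2 only 2 in place of 3 were lower in control CUTLL1 than in control TIB153. DESeq2 size factors and a pseudocount of 2 called the same members as reported. Across lines, edgeR called 812 rises and 900 falls over all genes; the DESeq2 Wald test called 200 and 258, lane 2 only 509 and 583, and the fit with no cell line block 0 and 0 (437 and 452 by edgeR at an unadjusted p under 0.05). With library totals as the scale edgeR called 827 rises and 552 falls, so that rises made up 59.97% of calls, against 47.4% with TMM. Of the members, 1 (STAT5A) rose by the DESeq2 Wald test and in lane 2 only, 0 rose with no cell line block, and 1 (IL7R) fell with no filter on low counts and in lane 1 only. Scaling by library totals moved the median of all genes by under 0.1 on the log2 scale. Changes near 0 that turned sign were IL4R (0.020 with library totals only, 0.030 in lane 1), PTPN2 (0.048 with library totals only, 0.035 in lane 2), BCL2L1 (−0.0049 with no filter, −0.041 with no block, −0.013 in lane 1), CISH (−0.058 in lane 1) and CCND2 (0.036 in lane 2). At this depth the TIB153 interval of SOCS1 and the CUTLL1 interval of SOCS3 include 2-fold changes in the higher direction as well as no change. Treated and control libraries were paired by cell line through the block, and lane numbers mark technical repeats that pair nothing.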
